A study of Mus musculus with 3 samples.

Results

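Of the 28692 genes counted in single cells from whole mouse lung, 4 are described here, the Notch ligands *Dll4*, *Dll1*, *Jag1* and *Jag2*. They were chosen by symbol, as the ligands that can activate Notch receptors. The libraries came from 3 wild-type C57BL/6 mice (mice 2, 3 and 4) taken at postnatal day 14 (P14) after breathing room air from P1, so there was 1 condition with 3 mice, and each comparison below was made between kinds of cells within these mice. Cells were captured from whole-lung digests with 10x Genomics v3 chemistry, which counts each captured transcript once, near its 3' end, as a unique molecular identifier (UMI). The digests were not sorted, and none of the 3 mice carried a mutant allele.

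Notch signaling passes between touching cells. A ligand on one cell binds a Notch receptor on its neighbor, the receptor is cut by an ADAM protease and then by γ-secretase, and the freed intracellular domain joins the DNA-binding protein RBPJ to switch on targets such as the *Hes* and *Hey* repressors. DLL1 and DLL4 belong to the Delta-like ligands and JAG1 and JAG2 to the Jagged ligands, which carry an additional cysteine-rich domain. In blood vessels DLL4 is known for arterial identity and for the selection of tip cells at sprouts, JAG1 for signaling to the smooth muscle that surrounds arteries, and Fringe enzymes (LFNG, MFNG, RFNG) add sugars to the receptors that change which ligand they answer.

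In the mm10 (GRCm38) annotation, *Dll4* (ENSMUSG00000027314) lies at chr2:119325784-119335962 on the plus strand, *Jag1* (ENSMUSG00000027276) at chr2:137081456-137116644 on the minus strand, *Dll1* (ENSMUSG00000014773) at chr17:15367354-15376872 on the minus strand and *Jag2* (ENSMUSG00000002799) at chr12:112907819-112929776 on the minus strand. *Gm14207* overlaps *Dll4* and *A930024N18Rik* overlaps *Dll1* on the opposite strand, and *Mir6941* lies within *Jag2* on the same strand. To show the stretch from which the endothelial Delta-like ligands are read, the 250 bases before the RefSeq start (GRCm38.p6) of *Dll4*, at chr2:119325534-119325783 on the plus strand, and before the outer of 2 RefSeq starts of *Dll1*, at chr17:15376933-15377182 on the minus strand, are given 5' to 3', with matches to the ETS core GGAAG in capitals. ETS factors include the regulators of endothelial genes.
Dll4: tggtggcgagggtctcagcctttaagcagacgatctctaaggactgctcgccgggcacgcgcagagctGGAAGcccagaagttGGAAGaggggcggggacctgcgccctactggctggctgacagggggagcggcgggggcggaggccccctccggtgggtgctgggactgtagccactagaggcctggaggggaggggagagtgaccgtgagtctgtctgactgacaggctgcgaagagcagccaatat
Dll1: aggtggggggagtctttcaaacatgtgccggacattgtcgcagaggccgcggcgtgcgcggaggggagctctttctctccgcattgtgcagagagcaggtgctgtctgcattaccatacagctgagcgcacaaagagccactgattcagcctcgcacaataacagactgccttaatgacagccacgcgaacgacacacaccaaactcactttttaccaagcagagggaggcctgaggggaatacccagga
The *Dll4* window held GGAAG at 182 and 167 bases before the start and this *Dll1* window held none, on either strand. The window before the inner *Dll1* start, which lies over an exon of the gene and is not printed, held 1 match, 13 bases before that start. The printed windows also lie over exons of *Gm14207* and *A930024N18Rik*, annotated on the other strand. Among 32851 such windows in the genome, 64.1% held GGAAG on 1 strand or the other. The RBPJ core TGGGAA was in neither window and in 21.6% of all windows. The windows were 65.6% and 56.0% G or C, and a match or its absence in them describes these letters only.

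After cells with fewer than 200 genes or more than 20% mitochondrial UMIs were left out, 2386, 2601 and 2655 cells remained in mice 2, 3 and 4 (7642 of 9644), with median depths of 7119, 4853 and 6453 UMIs. The libraries shared 2 to 5 barcodes in pairs before this filter and 1 to 4 after it. Clusters were named from marker lists, and the 4 ligands played no part in the clustering. Names are written "-like" where they rest on markers alone. *Gja5*, a gap junction gene of arteries, was detected in 81.0% of arterial-like endothelial cells (EC) and in 2.34% of other cells. *Slc6a2* was detected in 97.1% of venous-like ECs and 0.531% of other cells, whereas *Ackr1*, another venous marker, was detected in 0 of the 105 venous-like cells, which allows a share of up to 2.86%. The 2 capillary EC types were named for *Aplnr* (96.8% of cells against 5.04%) and *Car4* (77.1% against 3.63%). *Myh11* was detected in 98.97% of smooth muscle-like cells and 11.7% of others. The club-like cluster (98 cells, median 740 UMIs) also held markers of ciliated cells, with 6 of 6 detected, and *Scgb1a1* was found in 95.9% of its cells and in 42.4% of all others.

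Most UMIs of *Dll4*, *Dll1* and *Jag2* were in ECs, whereas those of *Jag1* were spread over 3 classes. The kept cells held 2027 UMIs of *Dll4*, 533 of *Dll1*, 2514 of *Jag1* and 562 of *Jag2*. ECs, 962 of the 7642 cells, held 88.9% ± 0.605 (SD, n = 3 mice) of the *Dll4* UMIs, 88.4% ± 2.85 of those of *Dll1* and 64.9% ± 4.34 of those of *Jag2*. *Jag1* was divided between epithelial cells (33.9% ± 1.82), ECs (32.8% ± 2.54) and stromal cells (29.2% ± 3.88). Epithelial cells held the next largest part of *Jag2*, 26.0% ± 3.83. These shares also depend on how many UMIs of all genes each class held. Relative to those, each ligand, *Jag1* included, was higher in ECs than in the other classes, as tested below. Cells in no named class held 6.24% ± 1.68 of the *Dll4* UMIs, against 3.32% ± 2.21 in epithelial cells. They held 4.35% ± 2.17 of those of *Dll1*, against 3.71% ± 1.52 in stromal cells, and were left out of the following test. In the exact permutation test (two-sided) of the shares in the 2 leading named classes, *Dll4*, *Dll1* and *Jag2* each gave p = 0.1. This is the smallest p that 3 values against 3 allow. *Jag1* gave p = 0.7 in the same permutation test (4 tests, adjusted p = 0.133 for the other 3 and 0.7 for *Jag1*). The test took the 2 classes as separate samples, although both shares came from the same 3 mice and are parts of the same total. It therefore does not measure the difference within mice.

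**Figure D1:**
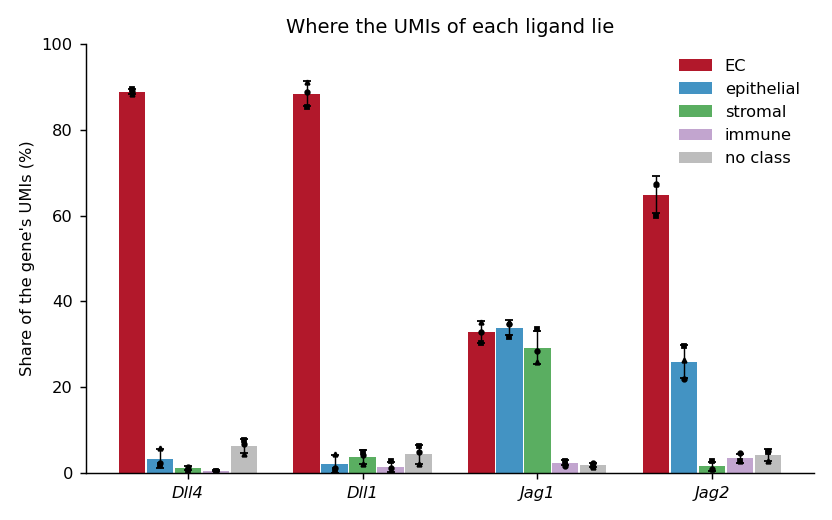
Share (%) of each ligand's UMIs found in each class of cells. Bars are means of 3 mice, points are the mice and lines the SD. ECs hold 88.9% of *Dll4* and 88.4% of *Dll1*, while *Jag1* is split among epithelial cells, ECs and stromal cells.

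In ECs the *Dll4* level was 193, 193 and 177 counts per 1000000 UMIs (CPM) in mice 2, 3 and 4, and 53.2% of ECs had at least 1 UMI. *Dll1* was at 48.6, 48.0 and 50.3 CPM (28.9% of ECs), *Jag1* at 74.1, 90.5 and 94.0 CPM (40.4%) and *Jag2* at 38.7, 33.2 and 41.3 CPM (27.0%). B-cell-like cells, taken as a type that should lack these ligands, gave the background of free RNA. Of their 1784 cells 0.168%, 0.392%, 0.561% and 0.392% had a UMI of *Dll4*, *Dll1*, *Jag1* and *Jag2*, at a median of 3960.5 UMIs against 7576.5 in ECs. With cells thinned to 1000 UMIs the shares in ECs were 16.3%, 4.62%, 8.23% and 3.84%, and in B-cell-like cells 0.0406%, 0.0731%, 0.112% and 0.0855%. All 4 ligands lay above that background in ECs at equal depth. Of the 962 ECs, 888 had the 1000 UMIs needed, and 839 the 2000 UMIs used below.

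Summed per mouse and class, every ligand was higher in ECs than in each of the other 3 classes (12 of 12 tests, edgeR quasi-likelihood test, Benjamini-Hochberg adjusted over 14234 genes). Of all genes tested, 33.4% were higher in ECs than in epithelial cells, 24.4% than in stromal cells and 34.0% than in immune cells. *Dll4* averaged 188 CPM ± 9.15 in ECs against 2.87 in epithelial, 1.22 in stromal and 0.795 in immune cells, which were log2 differences of 5.48 ± 0.20 (SE, adjusted p = 4.86e-12), 7.08 ± 0.24 (4.42e-12) and 7.73 ± 0.28 (3.97e-12). *Dll1* was higher in ECs by 6.04 ± 0.31, 5.35 ± 0.29 and 6.29 ± 0.34 on the log2 scale (adjusted p at most 4.06e-10). *Jag2* was higher by 2.12 ± 0.22 than in epithelial cells (5.62e-07), by 6.18 ± 0.34 than in stromal cells and by 4.49 ± 0.30 than in immune cells. *Jag1* had the smallest differences of the 4 from epithelial cells (37.6 CPM ± 5.98; log2 difference 0.74 ± 0.13, adjusted p = 0.000188) and stromal cells (41.9 CPM ± 6.79; 0.93 ± 0.14, 3.16e-05), and was higher in ECs than in immune cells (4.41 CPM) by 4.08 ± 0.20. The median log2 difference of the 4 ligands from epithelial cells was 3.80, against 0.03 over all genes tested. From stromal cells it was 5.77 against -0.06, and from immune cells 5.39 against -0.02.

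**Figure D2:**
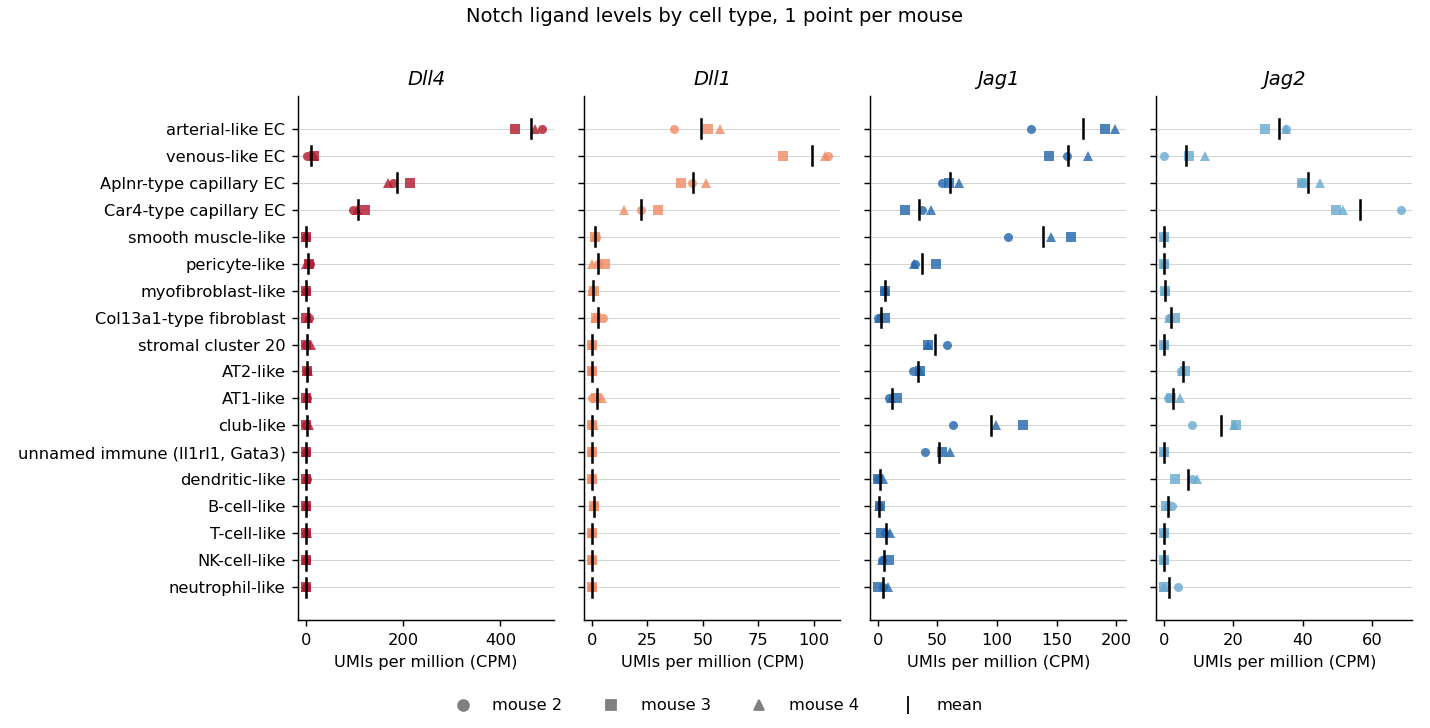
CPM of the 4 ligands by cell type, with points for the 3 mice and bars for the mean. *Dll4* and *Dll1* stand high in EC types, *Jag2* in capillary and arterial-like ECs, and *Jag1* in arterial-like and venous-like ECs, smooth muscle-like and club-like cells.

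Each ligand had its own order of levels among the EC subtypes. *Dll4*, the arterial and tip-cell ligand, was at 486, 431 and 471 CPM in arterial-like ECs of mice 2, 3 and 4 (88.3% of 163 cells positive). It was at 179, 214 and 169 CPM in *Aplnr*-type capillary ECs (59.7% of 437 cells), at 97.8, 122 and 105 CPM in *Car4*-type capillary ECs (43.0% of 179) and at 2.27, 16.7 and 16.7 CPM in venous-like ECs (7.62% of 105, 15 UMIs in all). The mice of each of these 4 types did not overlap with those of the next. The *Dll4* UMIs of the lung were 39.7% ± 2.64 in *Aplnr*-type and 35.8% ± 1.401 in arterial-like ECs.

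*Dll1*, a Delta-like ligand known for the maintenance of arterial identity, had another order. It was at 107, 86.1 and 105 CPM in venous-like ECs (57.1% of cells) and at 37.1, 52.3 and 57.5 CPM in arterial-like ECs. *Aplnr*-type ECs had 45.2, 39.96 and 51.6 CPM and *Car4*-type ECs 22.2, 29.7 and 14.8 CPM. The venous-like mice lay above those of every other type, arterial-like and *Aplnr*-type ECs overlapped, and *Car4*-type ECs lay below both.

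*Jag1*, the ligand known for vascular smooth muscle, was at 128, 190 and 199 CPM in arterial-like ECs and at 159, 143 and 177 CPM in venous-like ECs, which overlapped. *Aplnr*-type ECs had 53.5, 59.9 and 68.1 CPM and *Car4*-type ECs 36.9, 23.1 and 44.3 CPM. *Jag2*, the second Jagged ligand, was highest in *Car4*-type ECs with 68.3, 49.6 and 51.6 CPM. It was at 39.9, 39.96 and 45.0 CPM in *Aplnr*-type ECs, at 35.3, 29.3 and 35.3 CPM in arterial-like ECs and at 0, 7.17 and 11.9 CPM in venous-like ECs (8 UMIs). Among these 4 types, *Jag2* did not overlap between neighbors in that order.

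Of 16 tests over 4 subtype contrasts, 11 passed (edgeR, adjusted over 8298 genes). The share of all genes that differed in either direction was 23.8% for arterial-like against *Aplnr*-type ECs, 27.5% for arterial-like against *Car4*-type, 15.3% for arterial-like against venous-like and 14.3% for *Car4*-type against *Aplnr*-type. *Dll4* was higher in arterial-like ECs than in *Aplnr*-type by 1.42 ± 0.13 on the log2 scale (adjusted p = 3.17e-09), than in *Car4*-type by 2.17 ± 0.15 (3.03e-11) and than in venous-like by 5.27 ± 0.24 (7.73e-14), and lower in *Car4*-type than in *Aplnr*-type (log2 difference -0.75 ± 0.15, 0.000805). *Jag1* was higher in arterial-like ECs than in *Aplnr*-type (1.59 ± 0.17, 5.90e-08) and *Car4*-type (2.37 ± 0.22, 4.10e-09), with 0.09 ± 0.17 against venous-like ECs (0.837). Arterial-like cells of mouse 2, where *Jag1* was lowest, also held 5389 CPM of alveolar type 2 (AT2) markers against 262 and 493 CPM in mice 3 and 4, and the part of these in the result was not tested.

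*Dll1* was lower in arterial-like than in venous-like ECs (log2 difference -1.04 ± 0.22, adjusted p = 0.00137 by edgeR) and higher in arterial-like than in *Car4*-type ECs (1.22 ± 0.28, 0.00133), with 0.17 ± 0.21 against *Aplnr*-type (0.645). The first was no longer called without mouse 2 (-0.81, adjusted p = 0.0648), and the second without mouse 4 (0.82, 0.0829). *Car4*-type ECs had less *Dll1* (-1.05 ± 0.24, 0.00342) and less *Jag1* (-0.77 ± 0.23, 0.0215) than *Aplnr*-type ECs. These 2 calls were lost without mouse 4 (-0.70, 0.156, for *Dll1* and -0.90, 0.0506, for *Jag1*), and that of *Jag1* also without mouse 3 (-0.56, 0.269). *Jag2* was higher in arterial-like than in venous-like ECs (2.37 ± 0.47, 0.000598), and its differences of -0.23 ± 0.25 from *Aplnr*-type (0.593), of -0.67 ± 0.27 from *Car4*-type (0.0668) and of 0.44 ± 0.22 between *Car4*-type and *Aplnr*-type (0.212) did not pass. The difference in *Jag2* between arterial-like and *Car4*-type ECs passed in 7 alternative settings, with adjusted p from 0.0159 to 0.205 over all of them. With *Car4*-type sub-cluster 5 left out, whose 85 cells had a median of 938 UMIs, *Jag2* was higher in *Car4*-type than in *Aplnr*-type ECs (0.64, 0.0484).

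**Figure D3:**
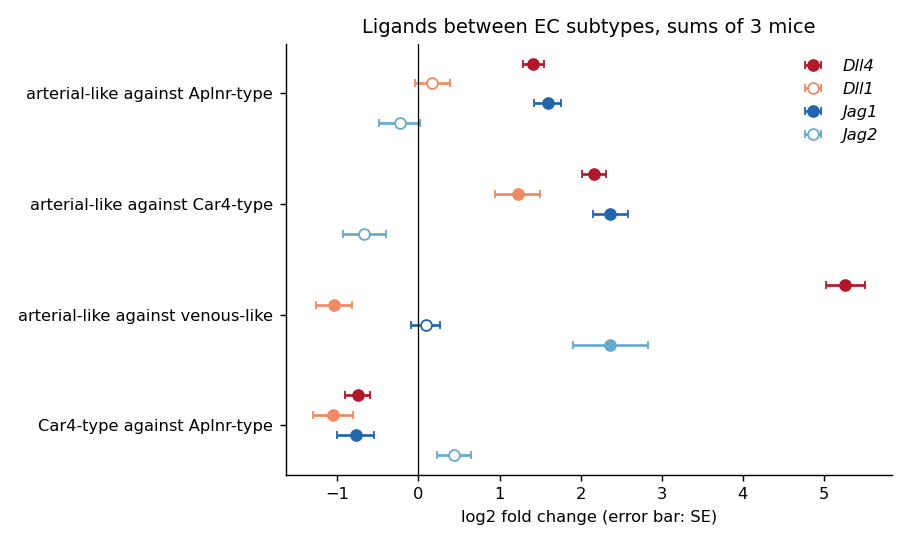
Log2 differences of the 4 ligands between EC subtypes from edgeR, with lines for the SE. *Dll4* and *Jag1* lie above 0 in arterial-like ECs against both capillary types, and *Dll1* lies below 0 against venous-like ECs.

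Arterial-like, *Aplnr*-type and *Car4*-type ECs were each made up of 2 sub-clusters, described here without a test. The 2 arterial-like sub-clusters differed in all 4 ligands, with no overlap between mice. Sub-cluster 3 (104 cells, led by *Cxcl12* and *Gja5*, with *Esm1*, a tip-cell gene, further down) had 532 CPM ± 30.3 of *Dll4*, 30.2 ± 0.99 of *Dll1*, 128 ± 34.6 of *Jag1* and 45.4 ± 5.92 of *Jag2*. Sub-cluster 6 (59 cells, led by *Sfrp1*, with *Gkn3* and *Dkk2*) had less *Dll4* and *Jag2*, at 388 ± 25.8 and 18.1 ± 12.1, and more *Dll1* and *Jag1*, at 68.5 ± 15.7 and 221 ± 38.8. Beside the arterial markers *Dkk2*, *Gja5* and *Bmx*, the leading genes of sub-cluster 6 held *Selp* and *Vwf* from the venous list. They also held *Lyve1* from the lymphatic list. The *Aplnr*-type sub-clusters differed in *Dll4*, which was at 301 CPM ± 5.77 in sub-cluster 1 (182 cells) and at 85.8 ± 9.26 in sub-cluster 0 (255 cells). *Jag1* went the other way in them, at 47.2 ± 8.24 in sub-cluster 1 and 73.9 ± 9.34 in sub-cluster 0, and the mice did not overlap. *Jag2* in *Car4*-type ECs was at 64.2 CPM ± 7.28 in sub-cluster 4 (94 cells) and at 38.1 ± 28.5 in the shallow sub-cluster 5.

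**Figure D4:**
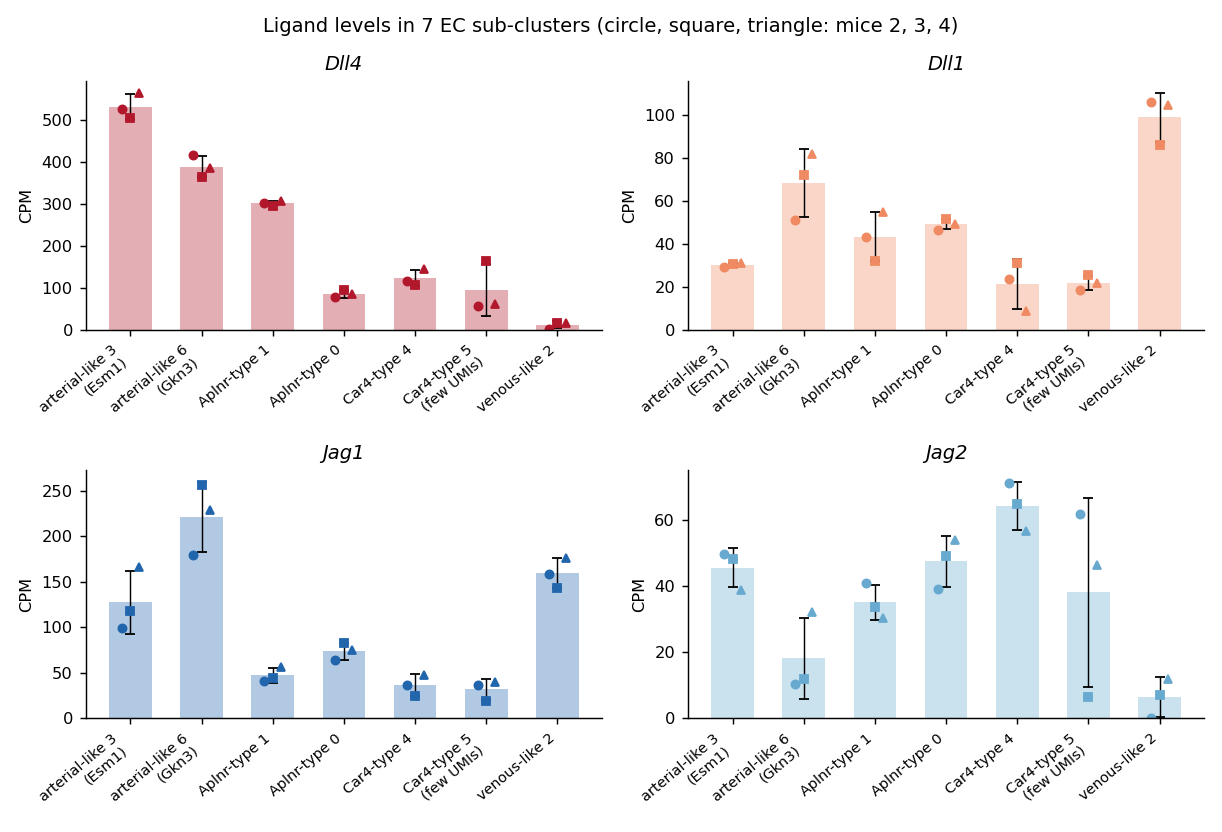
CPM of the 4 ligands in EC sub-clusters, with points for the 3 mice and bars for the mean. In the arterial-like sub-clusters 3 and 6, *Dll4* and *Jag2* are higher in 3, and *Dll1* and *Jag1* in 6.

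Outside the endothelium, the levels of *Jag1* were highest in smooth muscle-like and club-like cells. Smooth muscle-like cells had 109, 162 and 145 CPM of *Jag1* in mice 2, 3 and 4, and 65.2% of their 290 cells were positive (570 UMIs). These values overlapped with those of arterial-like and venous-like ECs. The other ligands were nearly missing there, with 7 UMIs of *Dll1* and with *Dll4* and *Jag2* in 0 of 290 cells, which allows a share of up to 1.03% for each and covers counting error only. The summed EC markers were at 91.3 CPM in smooth muscle-like cells against 9849 CPM in arterial-like ECs. Stromal cluster 20 (100 cells) met the marker rule for Col14a1-type fibroblasts, with *Dcn* in 83% and *Col14a1* in 79% of its cells, but most of its leading genes were cartilage genes (*Col2a1*, *Acan*, *Col9a1*, *Col11a1*), so it was left without a name. It had 58.2, 42.4 and 42.1 CPM of *Jag1* and pericyte-like cells 31.6, 49.2 and 30.6 CPM, which overlapped. Myofibroblast-like cells and Col13a1-type fibroblasts averaged 6.07 ± 0.458 and 2.63 ± 3.40 CPM.

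*Jag1* was the only ligand that passed the filter on low counts in stromal cells, and its 4 tests were all called (edgeR, 9722 genes). It was higher in smooth muscle-like cells than in pericyte-like cells by 2.11 ± 0.29 on the log2 scale (adjusted p = 5.99e-06), than in myofibroblast-like cells by 4.63 ± 0.22 (5.32e-13), than in Col13a1-type fibroblasts by 5.45 ± 0.35 (5.02e-11) and than in stromal cluster 20 by 1.47 ± 0.22 (2.42e-05). Of all genes, 17.7%, 19.3%, 18.4% and 12.7% were higher in smooth muscle-like cells in these contrasts. Smooth muscle-like cells held 22.8% ± 3.01 of the *Jag1* UMIs of the lung and AT2-like cells 23.5% ± 2.40.

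Within the epithelium *Jag1* was at 62.8, 122 and 99.3 CPM in club-like cells. Of these 98 cells, 67 of them from mouse 4, 37.8% were positive, with shares of 23.9% to 68.8% by mouse. AT2-like cells, the surfactant cells, had 29.5, 35.1 and 35.5 CPM (37.3% of 1070 positive). AT1-like cells, the flat gas-exchange cells, had 9.67, 15.998 and 11.4 CPM. The 3 types did not overlap. The summed AT2 markers were at 50956, 74025 and 71933 CPM in AT1-like cells against 221416, 197789 and 206239 CPM in AT2-like cells, with mouse 2 lowest and mouse 3 highest in AT1-like cells for these markers as for *Jag1*, and their part in the AT1-like level was not tested. By edgeR (9318 genes), where *Jag1* alone passed the filter, AT1-like cells had less than AT2-like cells (-1.77 ± 0.25, adjusted p = 3.95e-05) and club-like cells more (1.68 ± 0.16, 4.83e-07). Of all genes, 43.2% and 45.7% differed in those contrasts. *Jag2* was at 8.10, 20.9 and 20.3 CPM in club-like cells and at 5.08, 6.14 and 5.16 CPM in AT2-like cells, which did not overlap, and the AT2-like cells held 17.4% ± 2.27 of its UMIs. *Dll4* in AT2-like cells was at 2.24, 2.19 and 5.01 CPM, beside summed EC markers of 126, 109 and 189 CPM, and their part in it was not tested.

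Among immune cells, *Jag1* was highest in an unnamed cluster of 65 cells, led by *Il1rl1*, the receptor of interleukin 33, *Gata3*, *Il13* and *Il5*, with 39.5, 53.7 and 60.3 CPM of *Jag1* (24 UMIs, 13 cells positive). It had 0 UMIs of the other 3 ligands. Dendritic-like cells had 8.08, 3.21 and 9.60 CPM of *Jag2*.

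Many single ECs held more than 1 ligand. Of the 962 ECs, 206 had a UMI of none of the 4 ligands (21.4%), 299 of 1 (31.1%), 284 of 2 (29.5%), 120 of 3 (12.5%) and 53 of all 4 (5.51%). The median depth of these groups was 2060, 7104, 8468, 13474 and 27032 UMIs, so that cells with more ligands were also the deeper cells. *Dll4* alone was the most frequent pattern (159 cells), followed by *Dll4* with *Jag1* (94), *Jag1* alone (66), *Dll4* with *Jag2* (61) and *Dll1* with *Jag1* (58).

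*Jag1* was found in 40.1%, 46.5% and 53.4% of Dll4+ ECs of mice 2, 3 and 4, against 30.3%, 39.4% and 32.7% of Dll4- ECs (239 cells with both). *Jag2* was found in 34.9%, 33.1% and 35.2% of Dll4+ ECs against 16.6%, 16.3% and 21.6% of Dll4- ECs (177 with both). *Dll1* was found in 27.1%, 29.9% and 32.1% against 23.4%, 32.7% and 29.8% (152 with both). The log2 odds ratio with *Dll4* was 0.75 ± 0.42 (SD, n = 3 mice) for *Jag1*, 1.23 ± 0.23 for *Jag2* and 0.08 ± 0.24 for *Dll1*. The median depth was 8362.5, 8920 and 8382 UMIs in Dll4+ ECs and 6181, 7192 and 5733 UMIs in Dll4- ECs. With each cell thinned to 2000 UMIs, the log2 odds ratios were 0.06 ± 0.26, 0.19 ± 0.18 and -0.55 ± 0.19, near 0 for both Jagged ligands and below 0 for *Dll1*.

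Within arterial-like ECs, 90 of the 144 Dll4+ cells also had *Jag1*, and the log2 odds ratio was 1.89 ± 0.65 at full depth and -0.16 ± 0.25 at 2000 UMIs. For *Jag2* these ratios were 1.66 ± 1.24 and -0.015 ± 0.086, and for *Dll1* 0.97 ± 0.44 and -0.52 ± 0.31. The 19 Dll4- cells there had median depths of 1656, 2529.5 and 1822 UMIs in mice 2, 3 and 4 against 7077, 8437 and 7461.5 UMIs in Dll4+ cells. In *Aplnr*-type ECs the log2 odds ratios at full depth were 0.29 ± 0.38 for *Jag1*, 0.11 ± 0.46 for *Jag2* and -0.25 ± 0.62 for *Dll1*, each smaller than its SD, and at 2000 UMIs -0.22 ± 0.19, -0.012 ± 0.24 and -0.15 ± 0.092. In *Car4*-type ECs, which include the shallow sub-cluster 5, they were 2.49 ± 1.49, 2.32 ± 0.99 and 3.16 ± 1.46 at full depth, where the median depth was 916 to 2066 UMIs in Dll4- cells and 9533 to 11446 UMIs in Dll4+ cells. At 2000 UMIs they were 0.60 ± 0.25, 0.51 ± 0.44 and 1.02 ± 0.29, and 0.0076, 0.19 and 0.0029 with nothing added to the counts, on an expected 1.52, 2.97 and 0.644 cells with both ligands. For *Dll1* with *Jag1* in all ECs the log2 odds ratio was 1.62 ± 0.24 at full depth and 0.53 ± 0.18 at 2000 UMIs (0.43 with nothing added). Within venous-like, *Aplnr*-type and arterial-like ECs it was 0.28 ± 0.37, 0.24 ± 0.39 and 0.90 ± 0.53 at 2000 UMIs (0.12, -0.17 and 0.78 with nothing added). In *Car4*-type ECs it was 2.52 ± 0.47, and 0.82 with nothing added, on an expected 0.281 cells with both. Venous-like ECs were high in both ligands, and the part of the makeup by subtype in the pooled ratio was not tested.

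As a level, *Dll1* was at 38.8 CPM ± 4.15 in Dll4+ ECs and 68.7 ± 4.27 in Dll4- ECs, with no overlap between mice. *Jag1* was at 80.3 ± 14.9 and 97.5 ± 7.16 CPM and *Jag2* at 41.1 ± 2.43 and 31.0 ± 8.67 CPM. In the edgeR fit with the mouse as a block, *Dll1* was lower in Dll4+ ECs by a log2 difference of -0.84 ± 0.14 (adjusted p = 0.00256), and *Jag1* (-0.31 ± 0.12, 0.210) and *Jag2* (0.35 ± 0.17, 0.340) did not pass. Of 9831 genes, 5.97% differed. Venous-like cells, which are high in *Dll1*, made up 22.5% ± 5.62 of Dll4- and 1.74% ± 1.32 of Dll4+ ECs. With them left out, *Dll1* differed by -0.37 ± 0.17 (adjusted p = 0.451 by edgeR), and the differences of the Jagged ligands, which did not pass either, turned to 0.30 for *Jag1* and -0.09 for *Jag2*. DESeq2 gave *Dll1* an adjusted p of 0.118, and the range over the alternatives was 2.58e-06 to 0.451.

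Within *Aplnr*-type ECs none of the 3 ligands passed between Dll4+ and Dll4- cells by edgeR, at -0.45 ± 0.22 for *Dll1* (adjusted p = 0.426), -0.39 ± 0.19 for *Jag1* (0.443) and -0.35 ± 0.23 for *Jag2* (0.666). At an unadjusted p under 0.05, 2 passed by edgeR and 0 by DESeq2, and the share of all genes at that threshold was not computed. At an adjusted p under 0.05, 2.97% of 7750 genes were called by edgeR. In *Car4*-type ECs *Jag2* was the 1 ligand tested and did not pass (0.31 ± 0.36, 0.878), with 1.44% of 5345 genes called. Arterial-like and venous-like ECs had too few cells on 1 side to be tested.

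**Figure D5:**
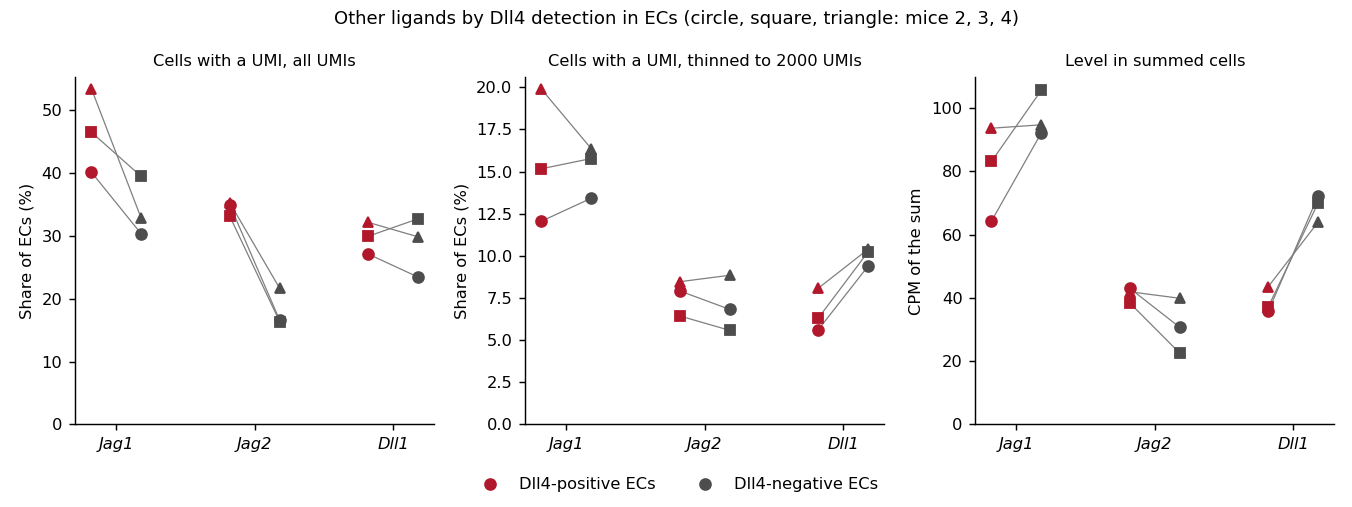
*Dll1*, *Jag1* and *Jag2* in Dll4+ and Dll4- ECs, with points for the 3 mice. In all ECs the CPM of *Dll1* is lower in Dll4+ cells in each mouse.

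The receptors, Fringe enzymes and targets of the pathway were measured in the same cells. A list of 39 further genes of the pathway was tested with the ligands. Against epithelial cells, 26 of 36 tested were higher and 6 lower in ECs, against immune cells 25 and 6, and against stromal cells 14 and 12. The lower shares over all genes were 32.8%, 35.2% and 31.0%, beside the higher shares given above. *Notch4*, an endothelial receptor, was higher in ECs than in stromal cells by 5.30 on the log2 scale and *Mfng* by 6.79, whereas *Notch3*, the receptor of mural cells, and the Notch target *Heyl* were lower (-4.60 and -4.76). Among EC subtypes 30 of the list were tested. Arterial-like ECs were higher in 10 and lower in 6 than *Aplnr*-type, 9 and 7 than *Car4*-type, and 7 and 4 than venous-like ECs. Over all genes 12.5% were higher and 11.3% lower in the first of these contrasts, 13.7% and 13.8% in the second, and 7.06% and 8.19% in the third. *Car4*-type ECs were higher in 4 and lower in 3 than *Aplnr*-type ECs, against 8.16% and 6.10% of all genes.

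*Notch1*, the receptor of DLL4 in ECs, averaged 729 CPM in arterial-like, 420 in *Aplnr*-type, 328 in *Car4*-type and 310 in venous-like ECs. The target *Hey1* was at 414, 179, 36.7 and 10.3 CPM in the same order, as *Dll4* was. Not every target fell in this way. *Hes1* averaged 148, 174, 164 and 194 CPM in the same types, and mice of neighboring types overlapped. Against venous-like ECs, arterial-like ECs were higher in *Hey1* (5.31), *Hey2* (8.94), *Nrarp*, a target that dampens the signal (2.19), *Notch4* (1.58) and *Notch1* (1.21), and lower in *Lfng* (-1.77). *Hey2* had no UMI in venous-like ECs, so its fitted difference has no firm size. *Lfng*, which sensitizes Notch1 to Delta-like ligands, was also lower in arterial-like than in *Aplnr*-type ECs (-1.49). *Mfng* was higher in *Car4*-type than in *Aplnr*-type ECs (0.82) and *Hey1* lower (-2.24).

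Between Dll4+ and Dll4- ECs, 5 of 32 genes of the list were higher and 1 lower, against 2.63% and 3.34% of all genes. These were *Hey1* (2.45 ± 0.13, adjusted p = 1.51e-07 by edgeR), *Hey2* (2.12 ± 0.46, 0.0135), *Nrarp* (1.32 ± 0.15, 0.00014), *Notch4* (0.60 ± 0.09, 0.00107) and *Notch1* (0.54 ± 0.07, 0.000261), and *Adam10*, the protease that cuts the receptor (-0.31 ± 0.08, 0.0422). DESeq2 called 4 of the 32, without *Hey2* (adjusted p = 0.0554) and *Adam10* (0.911). Arterial-like cells made up 27.9% ± 1.85 of Dll4+ and 4.70% ± 3.31 of Dll4- ECs, and venous-like cells the shares given above. With venous-like ECs left out, *Hey1* (2.01), *Nrarp* (1.32), *Notch1* (0.54) and *Notch4* (0.48) were still higher by edgeR, *Hey2* did not pass (1.66, adjusted p = 0.116), and *Adam10* turned to 0.12 (0.788). Arterial-like ECs, highest of the 4 EC subtypes in those still higher, stayed in this fit, and their part in the differences was not tested.

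Within *Aplnr*-type ECs, *Hey1* (1.71 ± 0.16, 1.56e-17), *Nrarp* (0.93 ± 0.27, 0.0257) and *Notch1* (0.38 ± 0.10, 0.00931) were higher and 0 of 27 lower by edgeR, against 1.55% and 1.42% of all genes. DESeq2 called *Hey1* alone, gave *Notch1* an adjusted p of 0.346 and gave *Nrarp* none (unadjusted p = 0.048). At an unadjusted p under 0.05, 7 of the 27 passed by edgeR and 3 by DESeq2. The share of all genes at that threshold was not computed, so these counts have no background beside them. *Aplnr*-type ECs pool sub-cluster 0 with sub-cluster 1, which was higher in *Dll4* and had *Hey1* among its leading genes. The part of this makeup in these differences was not tested. Within *Car4*-type ECs 0 of 20 passed by edgeR or DESeq2, and 3 and 1 had an unadjusted p under 0.05, again without a share over all genes.

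The genes whose mean level followed each ligand most closely were ranked by Pearson's r of log levels among 13715 genes. The ranking ran across 22 cell types, with stromal cluster 20, dividing cells and platelet-like cells among them. It is a description, since the types share libraries. *Dll4* was closest to *Sema3g* (0.992), an arterial semaphorin, *Ackr4* (0.976), *Tox2* (0.953) and *Hey1* (0.951). *Dll1* was closest to *Gpr182* (0.977), *Edn1*, the vasoconstrictor endothelin (0.975), and *Nos3*, the endothelial nitric oxide synthase (0.975). *Jag1* had no match as close, with *Megf6* (0.880), *C2cd2* (0.861) and *Tm4sf1* (0.855) first. *Jag2* was closest to *Magix* (0.948), *Stox1* (0.905) and *Kcnq1* (0.905). Between the ligands r was 0.866 for *Dll4* and *Jag2*, 0.764 for *Dll4* and *Dll1*, 0.687 for *Dll1* and *Jag2*, 0.655 for *Dll1* and *Jag1*, 0.515 for *Dll4* and *Jag1* and 0.511 for *Jag1* and *Jag2*.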

How the data were processed

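Whole-lung cells of 3 mice were profiled with 10x Genomics 3' v3 chemistry, 1 library per mouse. The files the authors deposited hold unnormalised UMI counts, 1 matrix of genes by barcodes per mouse. The submitters' processing notes name Cell Ranger 3.0.2 and mm10, and the matrices held 9644 cells and 28692 genes. Barcodes under 200 genes or over 20% mitochondrial UMIs were removed, which left 7642 cells (more than the study counts, whose filter is not given in the sources used here). Depth was 23744510, 22476491 and 25192427 UMIs in mice 2, 3 and 4 before this filter. The kept cells held 22300042, 20804836 and 23442355 UMIs. Intervals and limits cover counting error only.

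Cells were normalised with SCTransform (sctransform 0.4.2, Seurat 5.3.0, R 4.3.3) and clustered on 30 principal components of 3000 variable genes at resolution 0.8, and ECs again on 20. The 4 ligands were removed from the variable genes. Clusters were named from marker lists by their mean log2 fold (at least 1.9, on CPM plus 5) with at least 80% of markers detected in at least 10% of cells. These limits were set after the clusters were seen. Simulated doublets marked 156 cells, which were kept, and leaving them out was an alternative. Clusters that met no rule stayed unnamed, and there was no ciliated cluster. Names rebuilt in this way may differ from those of the study.

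Counts were summed per mouse and kind of cell and tested with edgeR 4.0.16 (quasi-likelihood, TMM, filterByExpr, Benjamini-Hochberg, threshold 0.05) over all genes, with mouse as a block only between Dll4+ cells (at least 1 UMI) and Dll4- cells. CPM is counts per 1000000 UMIs of the sum, given as mean ± SD over mice. Mouse numbers pair the sums because each mouse gave all its kinds of cells. Over 4464 genes the deviations of its class sums correlated at -0.066 to 0.268 (18 pairs). Log2 odds ratios were computed per mouse with 0.5 added to each count. Thinning gave each cell its expected share at a fixed depth, and shallower cells were left out. Similar genes were the 5 highest by r of log2(CPM + 10) among genes with at least 100 UMIs. The scripts were tested on simulated data. Alternatives were DESeq2 1.42.0, other normalization, filters, resolutions and blocks, and each mouse left out. The members, the pathway list and the marker lists were chosen with earlier results of these data known. The text names all members, but only a selection of the pathway genes past the threshold and of the similar genes. Sub-clusters, the unnamed immune cluster and label markers were described after their values were seen. SDs measure the spread between the 3 mice. The p-values of the fits without a block rest on the spread between sums of the same kind of cell. That spread was estimated over all kinds of cells in a fit, with the help of other genes. With mouse as a block, the p-values rest on the spread of the differences within mice.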

Additional observations from a re-analysis of the deposited data

Results flagged for a closer look

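Dividing cells (118, in no test above, though among the types used for the similar genes) had all 4 ligands above every value of the B-cell-like cells. *Dll4* averaged 82.7 CPM there (97.2, 81.3 and 69.6 CPM in mice 2, 3 and 4), *Jag1* 25.6 CPM, *Jag2* 14.9 CPM and *Dll1* 10.5 CPM. The summed EC markers were at 5992, 2773 and 3722 CPM in the same cells and their part in these levels was not tested. The 641 unnamed cells had 20.3 CPM of *Dll4* and 12.7 CPM of *Jag1*, beside 1187 CPM of EC markers.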

How the results depend on the processing

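Of 507 alternative fits of the 41 single ligand tests, 489 kept their direction and side of the threshold, 8 passed where the reported fit did not and 7 no longer passed. The other 3 changed sign without passing in either fit. These were *Jag1* (-0.31 to 0.30) and *Jag2* (0.35 to -0.09) between Dll4+ and Dll4- ECs without venous-like ECs, and *Jag1* between arterial-like and venous-like ECs without mouse 3 (0.09 to -0.05). No called difference reversed. The 12 of 12 class tests, 11 of 16 EC subtype tests, 4 of 4 stromal and 2 of 2 epithelial tests were called with and without the replicate block, as was the 1 of 7 between Dll4+ and Dll4- ECs, and the block changed no call. With no filter on low counts, 7 of 16 stromal and 4 of 8 epithelial tests were called, since more ligands were tested. The share of all genes called without the filter was not computed, and the shares above belong to the filtered fits. With DESeq2, 0 of 7 tests between Dll4+ and Dll4- ECs passed. The log2 odds ratios with *Dll4* depended on depth. At 1000 UMIs they were 0.21 for *Jag1*, 0.51 for *Jag2* and -0.28 for *Dll1* (0.078, 0.29 and -0.63 with nothing added to the counts), and at 2000 UMIs 0.065, 0.19 and -0.55 (0.033, 0.13 and -0.65). The versions with nothing added, and those that left out venous-like ECs or the shallow *Car4*-type sub-cluster, were chosen after seeing the data. Under the strict cell filter (500 genes, 10% mitochondrial UMIs) the ratio was 0.86 for *Jag2* and -0.23 for *Dll1*. The share of UMIs in ECs at 1000 and 2000 UMIs was 92.2% and 94.2% for *Dll4*, 41.0% and 41.3% for *Jag1*, and 72.9% and 71.0% for *Jag2*. It was 90.8% for *Dll4* without doublets and 69.3% for *Jag2* under the same filter. The cause of these shifts was not tested. In venous-like ECs, *Dll4* and *Jag2* rested on 15 and 8 UMIs. Lymphatic-like ECs (11, 7 and 5 cells) were not tested. A comparison with ciliated cells was not run, since no cluster met the rule for them and their markers lay in the club-like cluster.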

Other observations

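*Dlk1*, a Delta-like relative that lacks the domain through which the canonical ligands bind Notch, was at 19.0, 26.5 and 42.4 CPM in AT2-like cells of mice 2, 3 and 4. It had 0 UMIs in *Aplnr*-type, *Car4*-type and venous-like ECs. *Dlk1* was not confined to AT2-like cells, since smooth muscle-like cells had 28.2, 3.21 and 2.83 CPM in mice 2, 3 and 4. *Dll3*, the Delta-like gene that does not activate Notch, had 9 UMIs in all kept cells.

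*Notch3*, the receptor of mural cells, was at 1042, 1199 and 1045 CPM in pericyte-like cells and at 637, 528 and 623 CPM in smooth muscle-like cells. *Heyl*, a Notch target, averaged 415 CPM ± 36.8 in pericyte-like cells and 331 ± 42.8 in smooth muscle-like cells. *Jag1* was higher in smooth muscle-like cells than in pericyte-like cells, as given above, so the receptor and the ligand had opposite orders in these cell types.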
